A study of Sus scrofa with 6 samples.

Results

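The 8 pig microRNAs (miRNAs) described here are ssc-miR-17-5p, ssc-miR-18a, ssc-miR-18b, ssc-miR-19a, ssc-miR-19b, ssc-miR-20a-5p, ssc-miR-20b and ssc-miR-106a, written without the species prefix from here on. They are the measured main products of the pig miR-17-92 and miR-106a-363 clusters other than miR-92a and miR-363, and were taken by name from the 1645 entries of the deposited table, of which 358 are known pig miRNAs and 1287 are predicted ones. Small RNA libraries were made from cultured immature Sertoli cells, which support germ cells in the testis. The cells came from fetal pigs of 80 to 90 days of gestation and were grown in medium with 10% serum. The groups were 3 libraries of cells treated with 250 µM AA2P, the sesquimagnesium salt of L-ascorbic acid 2-phosphate and a stable form of vitamin C, added 6 h after seeding, and 3 libraries of untreated cells, called control. The labels give no length of treatment and do not say whether the libraries of a group came from separate animals or cultures, so p-values cover only the spread among these 6 libraries, part or all of which may be technical. The comparison addressed which miRNAs changed with AA2P.

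The miR-17-92 cluster is a polycistron: its primary transcript folds into several hairpins, and each is cut by Drosha and Dicer into its own mature miRNA. The miR-106a-363 cluster is its paralogous copy on another chromosome. MYC and E2F factors are known to activate miR-17-92 in human and mouse cells, where its products repress CDKN1A and BCL2L11 and so favour division and survival, and it was therefore named an oncomiR. In mouse testis the cluster is known from spermatogonia, and miR-18 is known there to repress the heat shock factor HSF2. The members fall into groups that share a seed, the stretch by which a miRNA finds its targets: the miR-17 group (miR-17-5p, miR-20a-5p, miR-20b, miR-106a), the miR-18 group (miR-18a, miR-18b) and the miR-19 group (miR-19a, miR-19b).

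Values are in TPM, the authors' counts scaled to a common library total, and log2 values are of TPM + 1. No length term was seen in them. Depth, read from the smallest step between values, was 26.9 to 36.0 Mreads (M for mega) in AA2P libraries and 25.8 to 32.3 Mreads in control libraries, so a count of 0 allows up to 0.0834 to 0.116 TPM (3 reads, counting error only). The most abundant miRNA, miR-21-5p, took 37.0 to 44.1% of the TPM in AA2P libraries and 51.3 to 53.0% in control libraries. Sertoli cell markers are mRNAs and were not analysed here. Summed markers of other cells were low to moderate. For 6 blood miRNAs they were 4.48 to 14.1 TPM in AA2P libraries and 4.81 to 5.87 TPM in control libraries. The 2 endothelial ones summed to 86.8 to 111 TPM with AA2P and 98.4 to 112 TPM in control, and 4 muscle and myoid ones to 218 to 306 TPM with AA2P and 167 to 227 TPM in control. Most of the last sum was miR-1, with means of 225.1 TPM with AA2P and 153.5 TPM in control. The means with AA2P and in control were 30.8 and 34.6 TPM for miR-143-3p, 8.68 and 6.70 TPM for miR-133a-3p and 1.89 and 1.28 TPM for miR-145-5p. The 1 measured miRNA of germ or pluripotent cells, miR-371-5p, stood at 0.03 to 0.11 TPM with AA2P and 0 to 0.04 TPM in control. Among the blood miRNAs, miR-144 and miR-223 stood at 0 in some libraries. Of the 2 tested, miR-142-3p was called higher with AA2P, at 2.68, 1.47 and 1.79 TPM against 0.43, 0.50 and 0.59 TPM in control (log2 fold change 0.96, adjusted p = 0.0293 by limma, a linear model fitted across all entries). It was no longer called in 8 of 18 alternatives, which include the fits without AA2P replicate 1 or 3 or any 1 control library (limma adjusted p over the alternatives 0.00023 to 0.142). The other tested blood miRNA, miR-486, was not called. Set against miR-17-5p in the same library, it went the other way, with a log2 difference of -0.62 (limma adjusted p = 0.108). The same difference for miR-142-3p was 0.87 (limma adjusted p = 0.079). No marker of the other lists was called. For miR-1 all AA2P values were above all control values, as for 40.4% of all entries (log2 fold change 0.55, limma adjusted p = 0.0746). Set against miR-17-5p, its groups overlapped (log2 difference 0.45, limma adjusted p = 0.196). The part of these other cells in the results below was not tested. In such bulk samples fewer cells of a type and less RNA per cell cannot be told apart.

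Products of the same polycistron stood at very different levels. In the RefSeq gene table of assembly Sscrofa11.1, the hairpins of the miR-17-92 cluster follow each other as MIR17, MIR18A, MIR19A, MIR20A, MIR19B-1 and MIR92A-1. In AA2P libraries miR-20a-5p averaged 102 times the level of miR-19a, the lowest main arm of that cluster, and in control libraries 143 times. miR-17-5p averaged 70.4 times the level of miR-19a with AA2P and 97.0 times in control. Abundant and low products were interspersed along the cluster: the abundant miR-17-5p is followed by the low miR-18a and miR-19a, then by the abundant miR-20a-5p and the low miR-19b. Capture in library preparation differs between miRNA sequences, so such ratios between miRNAs describe these libraries. The level of miR-19b cannot be assigned to a cluster, since both hold a hairpin for it, and the same holds for miR-92a.

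**Figure D1:**
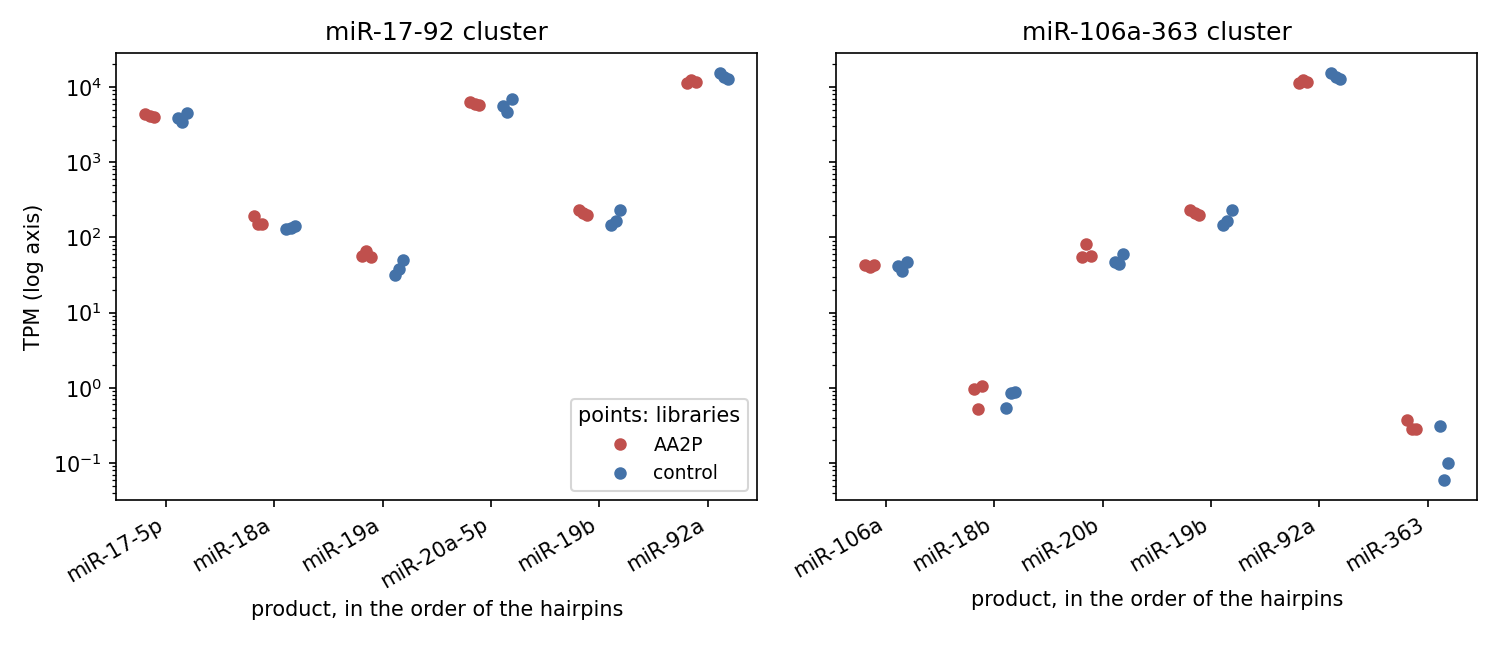
TPM (log axis) of the products of the miR-17-92 cluster (left panel) and the miR-106a-363 cluster (right panel), in the order of their hairpins, in 3 AA2P libraries (red) and 3 control libraries (blue). miR-19b and miR-92a come from both clusters and are drawn in both panels; miR-20a-5p and miR-17-5p stand far above miR-18a, miR-19a and miR-19b, and miR-18b and miR-363 stand lowest.

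All 8 members together took 1.07% ± 0.0540 of the TPM in AA2P libraries and 1.01% ± 0.172 in control libraries (SD, n = 3 each), with 0.853 to 1.19% in single libraries. miR-17-5p and miR-20a-5p made up 94.8 to 96.0% of that sum in the 6 libraries. The summed level was 1.06 times as high with AA2P and the groups overlapped (two-sided exact permutation test, p = 0.6, adjusted p = 0.7 over 6 sums; 3 against 3 libraries cannot go below 0.1).

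The miR-17 seed group was dominated by miR-20a-5p, which is known to repress E2F1 and CDKN1A. It stood at 6372, 5899 and 5778 TPM in AA2P libraries 1 to 3, against 5658, 4707 and 6945 TPM in control libraries 1 to 3. miR-17-5p, which has the same seed and many of the same known targets, stood at 4349, 4161 and 3957 TPM with AA2P, against 3847, 3405 and 4465 TPM in control. For both, the AA2P values lay inside the range of the control values, with control replicate 2 lowest and control replicate 3 highest. They ranked 17 and 25 by mean level among the 358 known miRNAs.

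The products of the paralogous cluster with the same seed were low. miR-106a, which is nearly identical to miR-17-5p in human, stood at 43.3, 41.0 and 43.3 TPM with AA2P, against 41.5, 35.5 and 47.4 TPM in control. miR-20b, known in human cells to repress HIF1A, stood at 54.4, 80.5 and 56.2 TPM with AA2P, against 47.7, 44.8 and 59.7 TPM in control. The groups overlapped for both, and AA2P replicate 2 was the library with the highest miR-20b. miR-106a made up 0.400 to 0.440% and miR-20b 0.498 to 0.790% of the seed group in the 6 libraries. How the authors assigned reads that match several near-identical members is not given in the sources used here, so miR-106a and miR-20b are less certain than the sum of the seed group, which was 10278 ± 499 TPM with AA2P and 9768 ± 1669 TPM in control (SD, n = 3 each; two-sided exact permutation test, p = 0.7, adjusted p = 0.7).

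In the miR-18 seed group miR-18a stood at 193, 151 and 149 TPM with AA2P, against 131, 134 and 143 TPM in control. All AA2P values were above all control values, the nearest libraries being AA2P replicate 3 and control replicate 3. miR-18b, its near-identical counterpart from the other cluster, stood at 0.97, 0.53 and 1.05 TPM with AA2P, against 0.54, 0.84 and 0.89 TPM in control, and the groups overlapped. These values correspond to 14 to 34 reads per library, and miR-18b was the member left out of the fits by the filter, which asks for a level of 1 TPM or more in 3 or more libraries. The sum of the pair was 165 ± 25.2 TPM with AA2P and 137 ± 6.45 TPM in control (SD, n = 3 each), the only one of the 6 sums whose groups did not overlap (two-sided exact permutation test, p = 0.1, the smallest possible, adjusted p = 0.6).

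In the miR-19 seed group, which was the main oncogenic part of the cluster in mouse lymphoma models, miR-19a stood at 55.9, 66.8 and 54.4 TPM with AA2P, against 32.1, 38.1 and 50.6 TPM in control. The groups did not overlap, and control replicate 3 came close to the AA2P libraries. miR-19b stood at 231, 211 and 196 TPM with AA2P, against 144, 166 and 232 TPM in control, where control replicate 3 was the highest of all 6 libraries. The sum of the pair was 272 ± 19.1 TPM with AA2P and 221 ± 55.3 TPM in control (SD, n = 3 each; two-sided exact permutation test, p = 0.3, adjusted p = 0.6).

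**Figure D2:**
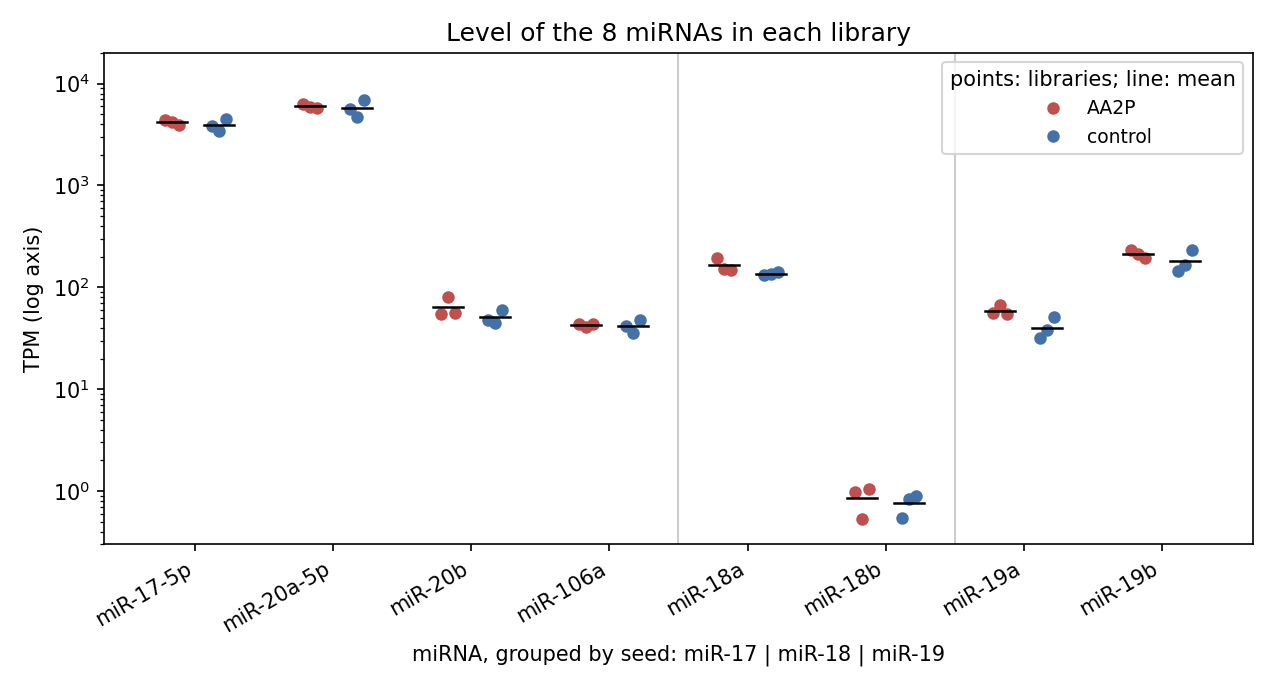
TPM (log axis) of the 8 miRNAs, grouped by seed, in 3 AA2P libraries (red, left of each pair) and 3 control libraries (blue); points are libraries and lines are means. The members span from about 0.53 TPM (miR-18b) to 6945 TPM (miR-20a-5p), and within each member the groups lie close together.

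In both groups the order of mean levels began with miR-20a-5p, miR-17-5p, miR-19b, miR-18a and miR-20b, and ended with miR-18b. The first 4 did not overlap with their neighbours in the order within a group. miR-20b, miR-19a and miR-106a were close: with AA2P the ranges of miR-20b and miR-19a overlapped, and in control those of miR-20b and miR-106a and of miR-106a and miR-19a.

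None of the 7 tested members was called as changed with AA2P. The fit was limma across all 433 entries that passed the filter, with calls at an adjusted p under 0.05, and it called 24.7% of all entries. The largest difference was that of miR-19a, which averaged 59.1 ± 6.78 TPM with AA2P and 40.3 ± 9.44 TPM in control (SD, n = 3 each). Its log2 fold change was 0.56 (SE 0.183, limma adjusted p = 0.0746, 0.0219 before adjustment), and its 95% interval spanned 1.08-fold to 2.01-fold. That member passed in 3 alternatives: with known miRNAs only (limma adjusted p = 0.00307), with entries of a mean of at least 10 TPM only (0.0420) and without control replicate 3 (0.0347, log2 fold change 0.73). Under 5 other scalings of the libraries its log2 fold change was 0.27 to 0.37 and it did not pass (limma adjusted p = 0.209 to 0.409). Over all alternatives its adjusted p was 0.00307 to 0.409.

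The next largest log2 fold changes were 0.31 for miR-20b (limma adjusted p = 0.268), 0.26 for miR-18a (0.157) and 0.26 for miR-19b (0.335). Single libraries moved these values: miR-20b was at 0.13 without AA2P replicate 2, miR-18a at 0.14 without AA2P replicate 1, and miR-19b at 0.11 without control replicate 1 and 0.45 without control replicate 3. miR-18a averaged 164 ± 25.1 TPM with AA2P and 136 ± 6.30 TPM in control, and its 95% interval spanned 0.977-fold to 1.47-fold. The intervals of miR-20b (0.900-fold to 1.71-fold) and miR-19b (0.876-fold to 1.63-fold) leave room for a change of over 1.5-fold. In deposited TPM the abundant pair had narrower intervals than miR-20b and miR-19b, but these do not cover the choice of scaling. Over all alternatives the log2 fold change was -0.20 to 0.20 for miR-17-5p and -0.22 to 0.22 for miR-20a-5p. miR-17-5p had a log2 fold change of 0.10 (limma adjusted p = 0.536) with an interval of 0.887-fold to 1.29-fold, and miR-20a-5p one of 0.08 (0.701) with 0.825-fold to 1.35-fold. Without control replicate 2 these were 0.0028 and -0.061, and without control replicate 3 they were 0.20 and 0.22. miR-106a had the smallest difference, 0.04 (limma adjusted p = 0.779), with an interval of 0.839-fold to 1.27-fold. The groups did not overlap for 2 of the 7 tested members, miR-18a and miR-19a, both higher with AA2P, where 40.4% of all entries did so in that direction.

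**Figure D3:**
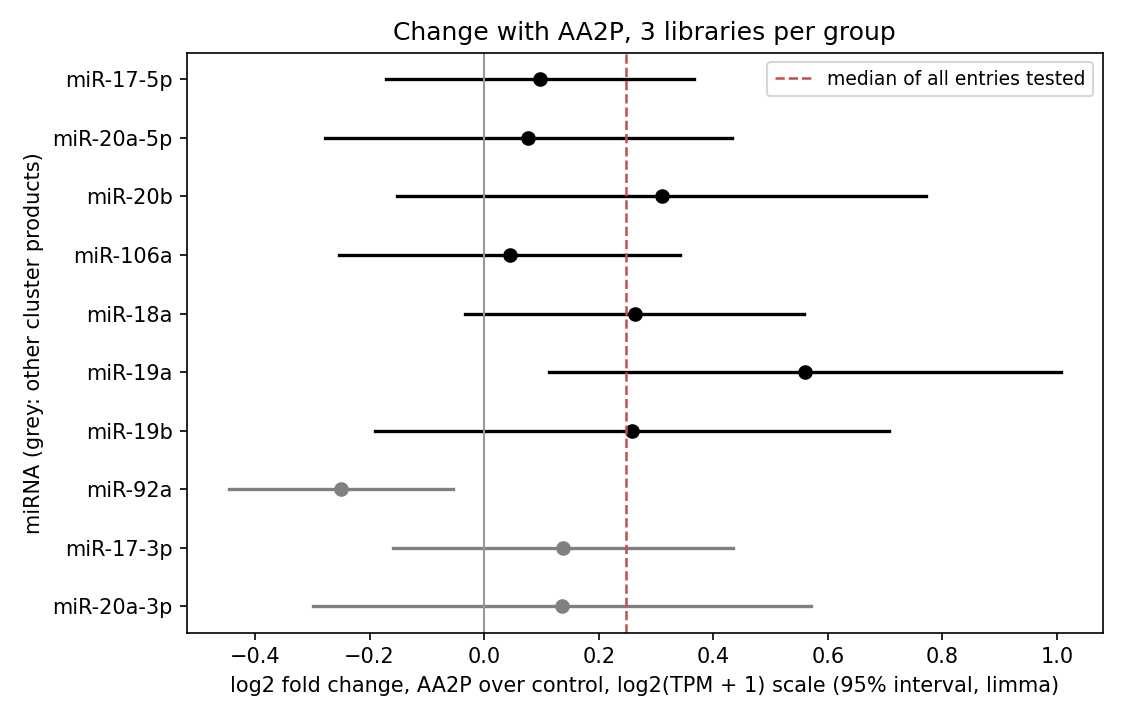
log2 fold change (AA2P over control, log2(TPM + 1) scale) with its unadjusted 95% interval from limma, 3 libraries per group, for the 7 tested members (black) and 3 other cluster products (grey). Of the grey products, miR-92a comes from both clusters. The dashed line is the median of all 433 entries, 0.25; miR-19a is the only member whose interval lies above 0.

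The members were close to what the whole table did. The median log2 fold change of the 7 tested members was 0.26, beside 0.25 for all 433 entries. miR-19a lay 0.31 above the median of all entries, miR-20b 0.06 above it, miR-20a-5p 0.17 below it and miR-106a 0.20 below it. Trimmed-mean scaling shifted the median of all entries by -0.23 (over the 5 other scalings the shift was -0.175 to -0.261), and the median of the tested members was then -0.0013. Signs of the members therefore depended on the scaling: all 7 log2 fold changes were above 0 in deposited TPM, 3 of them with trimmed-mean or median-of-ratios scaling, 2 with totals that leave out miR-21-5p, 4 with totals that leave out the 10 most abundant entries and 6 with quantile normalization. Only miR-19a and miR-20b were above 0 under all 6 scalings, and no member was called under any of them. Over all entries the calls were 86 higher and 21 lower in deposited TPM, against 50 and 49 with trimmed-mean scaling.

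**Figure D4:**
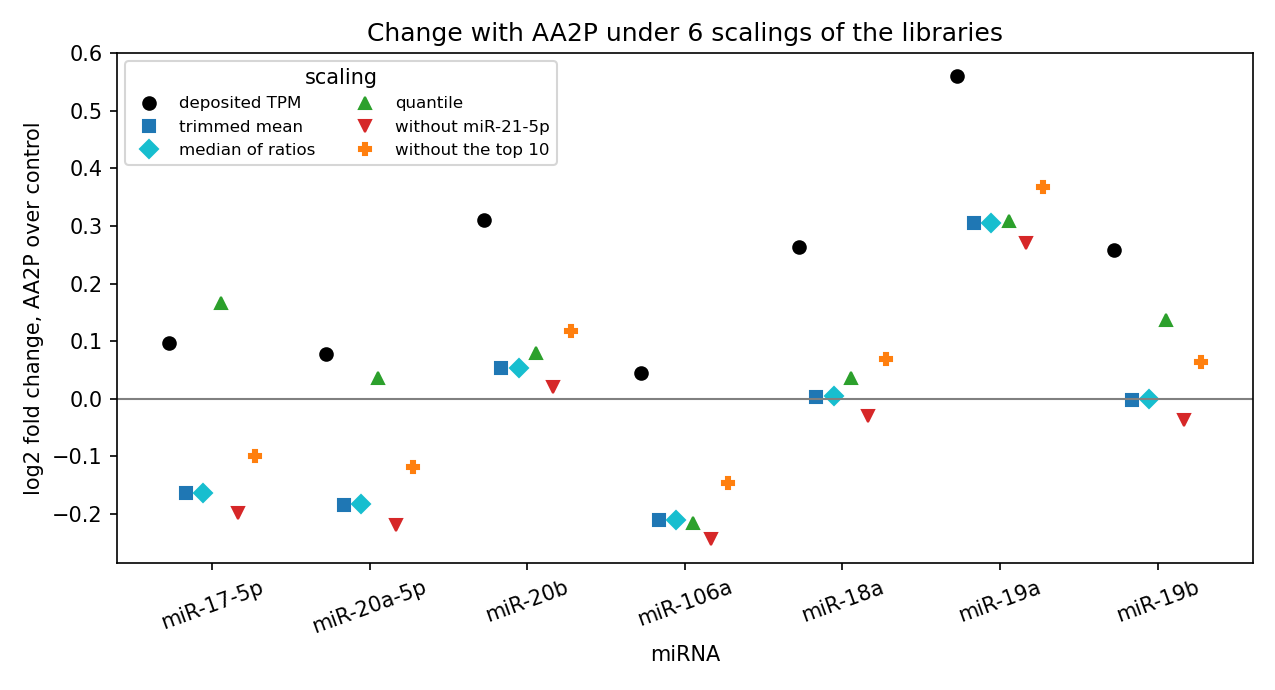
log2 fold change (AA2P over control) of the 7 tested members under 6 scalings of the libraries, 3 libraries per group. In deposited TPM (black circles) all lie above 0; with trimmed-mean or median-of-ratios scaling miR-17-5p, miR-20a-5p and miR-106a lie below 0 and miR-19b just below it, and miR-19a stays above 0 throughout.

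Ratios within a library do not depend on a factor that scales the whole library, although quantile normalization, which is no such factor, can change them. miR-20a-5p stood at 147, 142 and 146% of miR-17-5p in the AA2P libraries, against 147, 138 and 156% in the control libraries. miR-106a stood at 0.995, 0.985 and 1.09% of miR-17-5p with AA2P, against 1.08, 1.04 and 1.06% in control. These 3 miRNAs kept the steadiest proportions among the 21 pairs of tested members. The log2 ratios of miR-17-5p to miR-20a-5p, miR-17-5p to miR-106a and miR-20a-5p to miR-106a had the smallest SD over the 6 libraries (0.0574, 0.0619 and 0.0709). The log2 levels alone had an SD of 0.142 for miR-17-5p, 0.188 for miR-20a-5p and 0.134 for miR-106a. Pairs with entries outside the members were not ranked, so this steadiness cannot be called particular to the members. The log2 ratio of miR-374b-5p to miR-17-5p, for example, had an SD of 0.045 within each group. That of miR-106a had 0.083 with AA2P and 0.023 in control. miR-20a-5p comes from the miR-17-92 cluster and miR-106a from its paralog. How reads that match both miR-106a and the near-identical miR-17-5p were assigned is not given, and their part in this steady ratio was not tested. miR-20b, the other paralog product of the miR-17 seed group, was less steady. Its log2 ratio had an SD of 0.235 to miR-17-5p and 0.271 to miR-106a.

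miR-19a moved most against the others. It stood at 1.29, 1.61 and 1.37% of miR-17-5p with AA2P, against 0.833, 1.12 and 1.13% in control, and the groups did not overlap, as for 35.4% of all entries set against miR-17-5p. The log2 difference of this ratio was 0.46 (SE 0.164, limma adjusted p = 0.132). The ratio of miR-19b to miR-19a was 4.12, 3.16 and 3.60 with AA2P, against 4.50, 4.34 and 4.59 in control, with all AA2P values below all control values; this ratio was chosen after the values were seen and was not tested. No member was called relative to miR-17-5p in this fit, which called 13.4% of 432 entries. The log2 difference was 0.21 for miR-20b (limma adjusted p = 0.493), 0.17 for miR-18a (0.474), 0.16 for miR-19b (0.514), -0.02 for miR-20a-5p (0.894) and -0.05 for miR-106a (0.763).

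**Figure D5:**
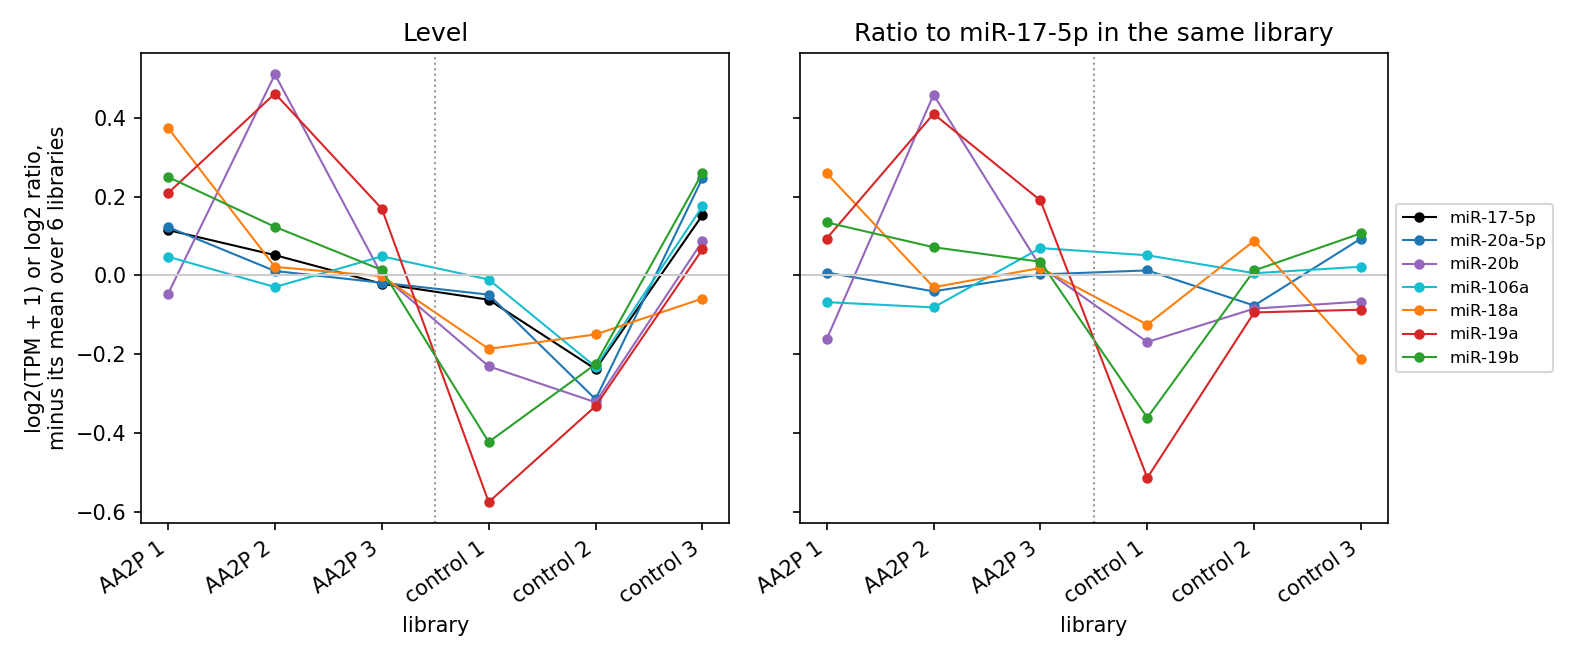
Left, log2(TPM + 1) of the 7 tested members in each library minus its mean over the 6 libraries; right, the log2 ratio of each to miR-17-5p in the same library, centred the same way. Lines only join the points of a miRNA. In the left panel control replicate 3 lies above the other controls for every tested member; in the right panel miR-20a-5p and miR-106a stay near 0, while miR-19a is higher in the 3 AA2P libraries than in the 3 control libraries.

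The control libraries differed among themselves in the whole group of members. Control replicate 3 had the highest control value of 7 of the 7 tested members, and control replicates 1 and 2 the lowest of 3 and 4. The share of all entries with this order is not given here, so the order cannot be called particular to the members. The coefficient of variation of miR-17-5p was 4.72% in AA2P libraries and 13.6% in control libraries, and that of miR-20a-5p 5.22% with AA2P and 19.5% in control. miR-18a was the other way round, with 15.3% with AA2P and 4.63% in control. The same held for miR-20b, with 22.8% with AA2P and 15.6% in control, and for miR-18b, with 32.9% with AA2P and 25% in control. Without control replicate 3, left out here after its values were seen, the groups did not overlap for 6 of the 7 tested members, all higher with AA2P (all but miR-106a), where 43.2% of all entries did so in that direction. Without any other single library it was 2 of 7, where 44.8 to 48.3% of all entries were higher without overlap.

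The products of the 2 clusters were also summed apart. Products made by the miR-106a-363 cluster alone summed to 107 ± 12.9 TPM with AA2P and 93.0 ± 13.7 TPM in control, and those made by miR-17-92 alone to 10396 ± 526 TPM with AA2P and 9852 ± 1667 TPM in control (SD, n = 3 each). The first sum was thus 1.03% of the second with AA2P and 0.946% in control (geometric means). The log2 ratio of the sums differed by 0.12 and the groups overlapped (two-sided exact permutation test, p = 0.5).

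The passenger arms, the strands of a hairpin that are mostly discarded, were detected for miR-17 and miR-20a. miR-17-3p stood at 8.08, 7.70 and 7.39 TPM with AA2P, against 7.12, 6.20 and 7.52 TPM in control, and was 0.168 to 0.187% of miR-17-5p. miR-20a-3p stood at 3.61, 3.86 and 3.85 TPM with AA2P, against 3.25, 2.67 and 4.25 TPM in control, and was 0.0567 to 0.0666% of miR-20a-5p. The groups overlapped in level for both. The 5p to 3p log2 ratio differed by -0.04 for miR-17 and -0.06 for miR-20a (two-sided exact permutation test, p = 0.8 and 0.4, adjusted p = 0.8 for both).

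Of 14 names of other products of these and the miR-106b-25 clusters, 4 were measured and 3 were tested, and none was called. Besides the passenger arms these were miR-92a and miR-363. miR-92a, made by both clusters but with another seed, stood at 11202, 12195 and 11754 TPM with AA2P, against 15181, 13754 and 12932 TPM in control. All AA2P values were below all control values, which held for 9.24% of all entries, and its log2 fold change was -0.25 (limma adjusted p = 0.0739). It passed as lower under all 5 other scalings, with log2 fold changes of -0.45 to -0.56 (limma adjusted p = 0.00714 to 0.0180), which shifted the median of all entries down as well. Set against miR-17-5p within a library, miR-92a stood at 258, 293 and 297% with AA2P, against 395, 404 and 290% in control. The groups overlapped through control replicate 3, and the log2 difference was -0.35 (limma adjusted p = 0.193). miR-363 stood at 0.37, 0.28 and 0.28 TPM with AA2P, against 0.31, 0.06 and 0.10 TPM in control, which is 2 to 10 reads, and was not tested.

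MYC is known from human and mouse B cells to repress another set of miRNAs. Of 18 tested members of that list, 5 were called higher with AA2P and 3 lower, beside 19.9% of all entries called higher and 4.85% called lower, and their median log2 fold change was 0.32. The most abundant of those called, all 3 higher with AA2P, were let-7f-5p at 44951 ± 5924 TPM with AA2P and 33559 ± 1920 TPM in control (limma adjusted p = 0.0382), let-7g at 31535 ± 4175 TPM with AA2P and 23349 ± 1801 TPM in control (0.0393), and miR-30c-5p at 11416 ± 1717 TPM with AA2P and 6801 ± 536 TPM in control (0.00962) (SD, n = 3 each). The calls of let-7f-5p and let-7g ended in 12 and 13 of 19 alternatives, among them all 5 other scalings, and that of miR-30c-5p in 0 of 19 (limma adjusted p over the alternatives 0.00305 to 1, 0.00285 to 0.485 and 9.2e-06 to 0.0396). let-7 miRNAs are known to repress MYC and RAS transcripts. Also called higher, and named here after their values were seen, were miR-30e-5p and miR-22-3p. Their log2 fold changes were 0.91 (limma adjusted p = 0.00685) and 0.65 (0.0319), beside 0.42 for let-7f-5p and 0.43 for let-7g. The alternatives of miR-30e-5p and miR-22-3p are not given here. The 3 called lower, named here after their values were seen, were miR-146a-5p, which restrains Toll-like receptor signalling, and miR-29a-3p and miR-29b, which repress collagens. miR-146a-5p averaged 1804 ± 185 TPM with AA2P and 4262 ± 309 TPM in control, with a log2 fold change of -1.24 (limma adjusted p = 0.0014), and kept its call in all 19 alternatives. miR-29a-3p averaged 1224 ± 23.2 TPM with AA2P and 1639 ± 159 TPM in control (limma adjusted p = 0.0183), and miR-29b averaged 15.4 ± 3.16 TPM with AA2P and 24.1 ± 1.26 TPM in control (0.0313) (SD, n = 3 each). Their calls ended in 4 and 6 of 19 alternatives, among them leaving out control replicate 1 or 3 or AA2P replicate 1, and for miR-29b also control replicate 2 (limma adjusted p over the alternatives 0.00262 to 0.074 and 0.00118 to 0.135; for miR-146a-5p 1.24e-09 to 0.0115).

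The miRNAs whose profile over the 6 libraries lay nearest to the mean profile of the 8 members were miR-374b-5p, let-7e, miR-15b, miR-186-5p and miR-26b-5p. Their centred log2 values differed from that mean profile by a root mean square of 0.0714, 0.0919, 0.109, 0.109 and 0.114, where the 248 entries compared (mean of at least 10 TPM) had a median of 0.235. The members themselves differed from it by 0.0775 (miR-17-5p) to 0.216 (miR-19a). Of them, miR-18a (0.13), miR-18b (0.187), miR-20b (0.187) and miR-19a lay farther from it than all 5. Each member had equal weight in the mean, also miR-18b with its 14 to 34 reads. miR-374b-5p stood at 602, 563 and 569 TPM with AA2P, against 499, 439 and 547 TPM in control, again with control replicate 2 lowest and replicate 3 highest among the controls. None of these 5 was called (limma adjusted p = 0.0577 to 0.137).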

How the data were processed

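Per the labels' protocols, all 6 libraries were run in 1 lane of an Illumina NovaSeq. The authors deposited 1 table of TPM rounded to 2 decimals, and each library sums to 1000000 within rounding. The submitters' processing notes name Bowtie without a version. Which genome build and miRBase release were used, and how shared reads were treated, is not stated in those sources. Low values (under 3 TPM) lay within 0.0051 TPM of a multiple of 1 step per library in 100.0% of cases, where rounding alone gives 26.3 to 36.7%, and the step gave the depth. A level of 10 TPM stands for 258 to 360 reads.

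Entries that reached 1 TPM in 3 or more libraries (433, of them 264 known) were fitted as log2(TPM + 1) by limma 3.58.1 in R 4.3.3 with a mean-variance trend and no block. The two-sided p-values were adjusted by Benjamini-Hochberg over all entries, and the fit was tested on simulated data. Fold changes on this scale understate those of low entries. Sums and ratios were compared by exact permutation tests in Python 3.11.15. The same fit was run on log2 ratios to miR-17-5p. Alternatives were pseudocounts of 0.5, 0.1 and 10, filters, 5 scalings, known miRNAs only, no trend, the replicate number as a block, and leaving out each library. Named were all members, the other cluster products measured, the 3 most abundant called miRNAs of the MYC list and the 5 nearest profiles. The other called miRNAs of that list and miR-142-3p were added after their values were seen. The members and lists were chosen with earlier results of these data known. Hairpin order came from the RefSeq table, in which 9 hairpins of the 8 members were found; its coordinates are not given because the build of the files is not stated.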

Additional observations from a re-analysis of the deposited data

How the results depend on the processing

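Depth limits miR-18b most, with 14 to 34 reads per library, while the other members rested on 828 or more. The count of tested members called was 0, and 1 (miR-19a) with a required mean level of 10 TPM, with known miRNAs only, and without control replicate 3 (0 to 1 without 1 library); the cause was not tested. It was 0 under the other 16 alternatives. No member was called under any of the 10 alternatives of the fit relative to miR-17-5p. These include the fit with miR-20a-5p as the common member in place of miR-17-5p.

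Scalings other than quantile normalization lowered the log2 fold changes of all tested members. Values that fell below 0, in the order trimmed mean, median of ratios, totals without miR-21-5p and totals without the 10 most abundant entries, were -0.16, -0.16, -0.20 and -0.10 for miR-17-5p, -0.18, -0.18, -0.22 and -0.12 for miR-20a-5p, -0.21, -0.21, -0.24 and -0.15 for miR-106a, -0.092, -0.092, -0.12 and -0.034 for miR-17-3p and -0.066, -0.066, -0.094 and -0.015 for miR-20a-3p. In the first 3 of these miR-19b was at -0.0013, -0.00093 and -0.036, and miR-18a was at -0.031 with totals without miR-21-5p. Quantile normalization put miR-106a at -0.22, miR-17-3p at -0.21 and miR-20a-3p at -0.10. Without 1 library, miR-17-5p was at 0.0028 to 0.20, miR-18a at 0.14 to 0.33, miR-19a at 0.41 to 0.73, miR-19b at 0.11 to 0.45 and miR-20b at 0.13 to 0.43, all above 0. miR-20a-5p was at -0.061 to 0.22 and miR-106a at -0.060 to 0.14, below 0 without control replicate 2 only; relative to miR-17-5p, miR-20a-5p was at -0.063 to 0.022, above 0 without control replicate 3 only. The 8 summed members differed by 589 TPM (AA2P minus control) as deposited, and by -1287, -1287 and -1523 TPM under the first 3 of these scalings; the miR-17 seed group by -1293, -1293 and -1521, miR-17-92 products by -1279, -1278 and -1508, and miR-106a-363 products by -3.85, -3.91 and -6.59. The miR-18 group was at -1.92 with totals without miR-21-5p.

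Without 1 library the differences in summed TPM were -208 to 1498 for all members, -277.7 to 1385 for the miR-17 seed group, 14.0 to 36.3 for the miR-18 group, 28.2 to 81.5 for the miR-19 group, -240.4 to 1419 for miR-17-92 and 6.64 to 21.6 for miR-106a-363; the negative ones were those without control replicate 2. The log2 ratio of the cluster sums differed by 0.012 to 0.21, and the arm ratio of miR-17 by -0.065 to 0.0089, above 0 without control replicate 3 only. The count of tested members with no overlap, run without each library after the data were seen, was 2 to 6.

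Over all entries the calls (107, 86 higher and 21 lower) were 57 (48 and 9) with no filter. They were 50 and 49 with trimmed-mean scaling, 49 and 49 with median-of-ratios scaling, 45 and 42 with quantile normalization, 39 and 43 with totals without miR-21-5p and 55 and 36 without the 10 most abundant entries. Without 1 library they were 62 to 98 (54 to 78 higher, 8 to 20 lower). Relative to miR-17-5p, 58 calls became 25 with miR-20a-5p as the common member and 19 to 52 without 1 library. Libraries with the same number deviated together with correlations of 0.288, 0.0625 and 0.177, against -0.264 to 0.108 for libraries with different numbers. Each AA2P library thus correlated most with the control of its own number. The same-number values were not all over 0.1, so the number was not taken as pairing. Whether the libraries were paired was not tested. With the replicate number as a block, 63 entries were called (52 higher, 11 lower), 25 relative to miR-17-5p, and 0 members.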
